A study of Homo sapiens with 2 samples.

Results

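Immediate early genes are the genes a cell switches on first after a growth factor or stress signal, without needing new protein. The 10 described here were FOS, FOSB, FOSL1, JUN, JUNB, JUND, EGR1, IER2, ZFP36 and KLF6. They were taken by name as the rows whose platform-annotated symbol was 1 of these, and all 10 had a probe set of their own, among 18417 genes that had one. Each had exactly 1 probe set, so no gene had a second measurement on the same array. All 10 lay above the floor used for the comparison, a log2 signal of 6 in the higher sample, which 13471 genes reached.

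The data came from K562 cells, an established line of chronic myeloid leukaemia whose growth is driven by the BCR-ABL fusion kinase and which resembles early red cell precursors. Both cultures carried a doxycycline-inducible short hairpin RNA named shBmi1, directed at BMI1, a subunit of Polycomb repressive complex 1. Doxycycline was added to 1 of the cultures for 96 h. The control had no doxycycline but carried the hairpin as well. Each group held 1 sample, measured on 1 Affymetrix array, and neither had a replicate. The sources used here do not give the promoter that drives the hairpin or whether the line is 1 clone. No sample received doxycycline without the hairpin, so the drug and the hairpin cannot be told apart.

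Signals from growth factor receptors, or from BCR-ABL, pass through the ERK, p38 and JNK kinases to factors already bound at these genes. SRF with its partner ELK1 acts through the CArG box, and CREB and ATF proteins act through the cyclic AMP response element, or CRE. FOS and JUN proteins pair to form the AP-1 transcription factor. EGR1 and KLF6 are zinc finger transcription factors, IER2 is a nuclear regulator, and ZFP36 (tristetraprolin) binds AU-rich mRNAs and hastens their decay. The transcripts are classically short-lived and their induction is brief, while the arrays sampled 1 time point.

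The sequences upstream of the genes are shown because all 10 are grouped by how they are switched on. RefSeq starts on GRCh38.p14 were matched for 9 of the 10 genes by symbol, and the 200 bases before each start were searched on both strands for 7 motifs. These were a CRE-type element TGACNTCA, the CRE core TGACGT, the AP-1 element TGANTCA, the CArG box by its name, CCAAT, the EGR element GCGNGGGCG and TATAAA. The CRE-type element holds the CRE core only where its N is G. Every TGACGTCA also holds TGACGT, and a CArG box can hold TATAAA or CCAAT. The windows of 5 genes are printed: KLF6 and ZFP36 had the widest differences between the samples, and FOS, JUN and EGR1 are the best known of the class. FOS lies at chr14:75278628-75278827 (plus strand), JUN at chr1:58784048-58784247 (minus strand), EGR1 at chr5:138465279-138465478 (plus strand), KLF6 at chr10:3785210-3785409 (minus strand) and ZFP36 at chr19:39406647-39406846 (plus strand). The sequences run 5′ to 3′ on the strand of the gene and end at the base before the start, and capitals mark every match:
FOS: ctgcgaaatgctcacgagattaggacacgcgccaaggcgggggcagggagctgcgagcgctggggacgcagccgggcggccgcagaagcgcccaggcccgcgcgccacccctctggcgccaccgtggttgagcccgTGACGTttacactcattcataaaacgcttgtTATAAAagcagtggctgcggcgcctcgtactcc
JUN: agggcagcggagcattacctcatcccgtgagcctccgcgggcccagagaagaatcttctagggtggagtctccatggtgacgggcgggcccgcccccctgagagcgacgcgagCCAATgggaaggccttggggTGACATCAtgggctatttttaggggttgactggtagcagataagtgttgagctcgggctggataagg
EGR1: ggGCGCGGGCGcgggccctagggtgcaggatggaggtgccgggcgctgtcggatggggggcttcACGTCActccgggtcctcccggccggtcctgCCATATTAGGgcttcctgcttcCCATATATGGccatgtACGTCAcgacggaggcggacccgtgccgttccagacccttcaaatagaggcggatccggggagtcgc
KLF6: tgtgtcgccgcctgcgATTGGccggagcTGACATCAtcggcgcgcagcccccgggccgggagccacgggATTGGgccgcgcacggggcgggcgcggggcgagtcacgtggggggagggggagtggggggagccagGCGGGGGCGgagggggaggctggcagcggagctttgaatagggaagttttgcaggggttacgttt
ZFP36: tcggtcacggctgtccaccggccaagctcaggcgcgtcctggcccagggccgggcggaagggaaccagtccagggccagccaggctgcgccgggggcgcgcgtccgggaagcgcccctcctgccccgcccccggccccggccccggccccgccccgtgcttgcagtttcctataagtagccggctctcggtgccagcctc

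FOS and FOSB each had a CRE core and a TATA element, at 64 to 59 and 33 to 28 bases upstream in FOS and at 60 to 55 and 30 to 25 in FOSB. EGR1 was the 1 gene of the 9 with a CArG box in its window and held 2 of them, at 105 to 96 and 83 to 74 bases upstream, with CRE cores at 136 to 131 and 67 to 62. A CArG box occurred in 0.982% of the 35116 RefSeq windows of this length. The CRE-type element TGACNTCA, found in 6.17% of the windows, was present in 3 of the 9 members. It lay at 67 to 60 bases upstream in JUN, 172 to 165 in KLF6 and 200 to 193 in JUND. JUN and KLF6 carried the same 8 letters, TGACATCA, which lack the CRE core, and JUND carried TGACGTCA, which holds it. The remaining motifs were the CRE core in 4 of the 9 (6.32% of all windows), CCAAT in 4 (28.0%), TATAAA in 3 (8.59%), the EGR element in 2 (7.56%) and the AP-1 element in 0 (5.38%). ZFP36 and IER2 had no match to any of the 7, which says only that these letters are not in this window. The same holds for each motif without a match in the other genes, such as the CArG box in FOS.

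**Figure D1:**
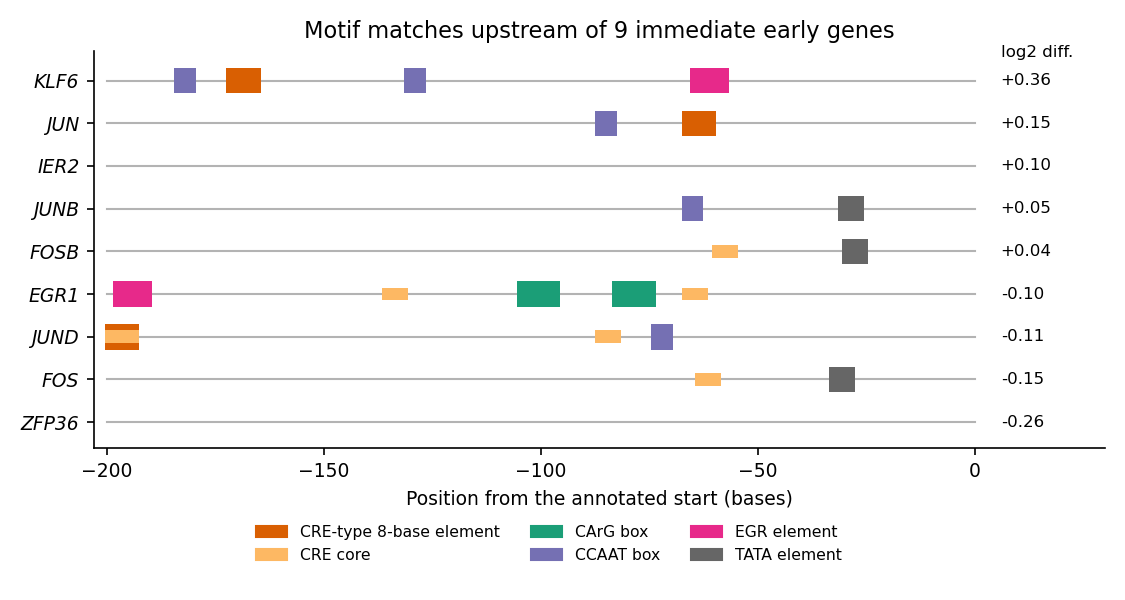
Positions of motif matches in the 200 bases upstream of the annotated start (horizontal axis, bases from the start) for the 9 immediate early genes with a RefSeq window, ordered by their log2 difference, doxycycline minus no doxycycline, printed at the right. The CRE-type element lies in KLF6 at 0.36, JUN at 0.15 and JUND at -0.11. The narrow bars are CRE cores, and the AP-1 element has no match. Motifs were chosen after the values were seen, and a link between motif and difference was not tested.

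The comparison of doxycycline with no doxycycline asks how these genes stood when the BMI1 hairpin had been induced. The probe set of BMI1, shared with its COMMD3-BMI1 read-through, read 10.00 with doxycycline against 10.84 in the control, 1.79-fold lower. Over the 13471 genes the 2 samples had nearly the same centre, with a median difference of 0.0017 and a robust SD (the median absolute deviation scaled to an SD) of 0.15 on the log2 scale. Of 13 genes listed as marks of K562 as an erythroid-like line, 9 had a probe set of their own. All 9 passed the floor and were lower with doxycycline (median -0.18), where 48.9% of all genes were lower. At least 1.2-fold lower were 3 of the 9, against 4.05% of all genes. HBZ differed most, at 10.38 with doxycycline against 10.83 in the control, and GATA1 read 10.16 against 10.34. The summed log2 level of the 9 was 88.7 with doxycycline and 90.6 in the control. Markers of other cells passed the floor in 3 of 7 genes for T and B cells (median -0.17), where CD3E, CD3G, CD2 and MS4A1 did not. They passed in 6 of 8 for monocytes and granulocytes (median -0.02) and 4 of 6 for fibroblasts (median 0.03). Summed over all 7, 8 and 6 genes, those under the floor included, the log2 levels were 41.4 and 42.2, 53.1 and 53.1, and 36.1 and 35.8, with doxycycline and in the control. Such sums grow with the number of genes, so they are not compared between lists. The part of the erythroid marker difference in the values below was not tested.

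The 10 immediate early genes were split between the directions: 5 were higher with doxycycline and 5 lower, and their median difference was -0.02 with an SD between genes of 0.18. Among all genes compared, 50.3% were higher, 48.9% lower and the median was 0.0017. KLF6 was the member furthest up and ZFP36 the member furthest down, and the other 8 lay within 1.2-fold of equal. At the 1.2-fold size, 1 of 10 was higher and 1 of 10 lower, where 6.05% and 4.05% of all genes were (10.1% either way). At the 1.5-fold size 0 of 10 differed, where 0.364% of all genes were higher and 0.111% lower (0.475% either way). Each count at the 1.2-fold size rests on 1 gene, so nothing about the 10 as a set is read from it. With 1 sample a group there is no replicate error and no p-value, and the spread among genes of like signal is given as a description.

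**Figure D2:**
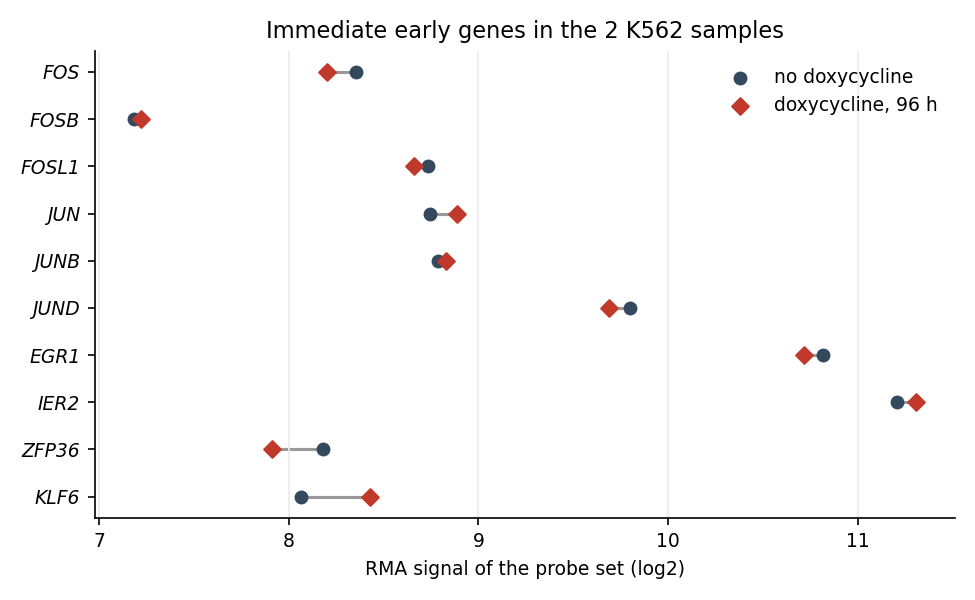
Log2 RMA signal (horizontal axis) of the single probe set of each of the 10 immediate early genes in the culture without doxycycline (circles) and with doxycycline for 96 h (diamonds), 1 sample each. The longest connecting lines belong to KLF6, at 8.06 and 8.43, and to ZFP36, at 8.18 and 7.91; signal is not comparable between genes.

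Among the FOS genes, which need a partner such as JUN to bind DNA, the values were close (where 2 readings are given, that with doxycycline comes first). FOS read 8.20 with doxycycline against 8.35 in the control, a difference of -0.15 or 1.11-fold lower. Across all genes 30.7% were at least as far apart as FOS. FOSB, the FOS relative known from long-lasting neuronal induction, was at 7.22 and 7.18, a difference of 0.04. FOSL1 (FRA1), often raised where ERK signalling is sustained, was at 8.66 and 8.73, a difference of -0.07. FOSB and FOSL1 differed by less than the robust SD of genes at their level, 0.16 and 0.14.

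The JUN genes, which can pair with one another as well as with FOS proteins, did not share a direction. JUN read 8.89 with doxycycline against 8.74 in the control, a difference of 0.15 or 1.11-fold higher, and 33.8% of all genes were at least as far apart. JUNB, which often opposes JUN in growth control, was at 8.83 and 8.78, a difference of 0.05. JUND, the JUN gene usually expressed without a stimulus, was at 9.69 and 9.80, a difference of -0.11. JUN and FOS, the classic AP-1 pair, thus had differences of opposite sign that lay 0.30 apart. Of the 6 FOS and JUN genes 3 were higher and 3 lower, with a median of -0.02. JUN and FOS were barely beyond the robust SD at their levels, 0.14 for each, and the remaining 4 were within it.

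EGR1 and IER2 gave bright signals with small differences. EGR1, which drives growth and differentiation genes and carries the pair of CArG boxes shown above, read 10.72 with doxycycline against 10.82 in the control, a difference of -0.10 or 1.07-fold lower. Of the 1347 genes in its bin of signal, 40.9% were at least as far apart. IER2 was at 11.31 and 11.21, a difference of 0.10 or 1.07-fold higher, with 40.6% of the genes in the same bin at least as far apart. Both differences were inside the robust SD of that bin, 0.12.

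KLF6, a Krüppel-like factor with growth-suppressing roles, had the widest difference of the 10. It read 8.43 with doxycycline against 8.06 in the control, a difference of 0.36 or 1.29-fold higher. This was 2.53 times the robust SD at its level, and 3.50% of all genes (472 of 13471) and 2.97% of those in its bin (40 of 1347) were at least as far apart. More positive differences than that of KLF6 were found for 318 genes.

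ZFP36 stood at the other end, reading 7.91 with doxycycline against 8.18 in the control. Its difference of -0.26 only just reached the 1.2-fold size. It was 1.75 times the robust SD at its level, and 9.90% of all genes were at least as far apart. The differences of KLF6 and ZFP36 were 0.63 apart. Counting each gene against its own bin, 4 of the 10 (FOS, JUN, ZFP36 and KLF6) were further apart than 1 robust SD, against 32% of all genes. For the 8 members other than KLF6 and ZFP36, the share of all genes at least as far apart ran from 30.7% to 80.9%.

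**Figure D3:**
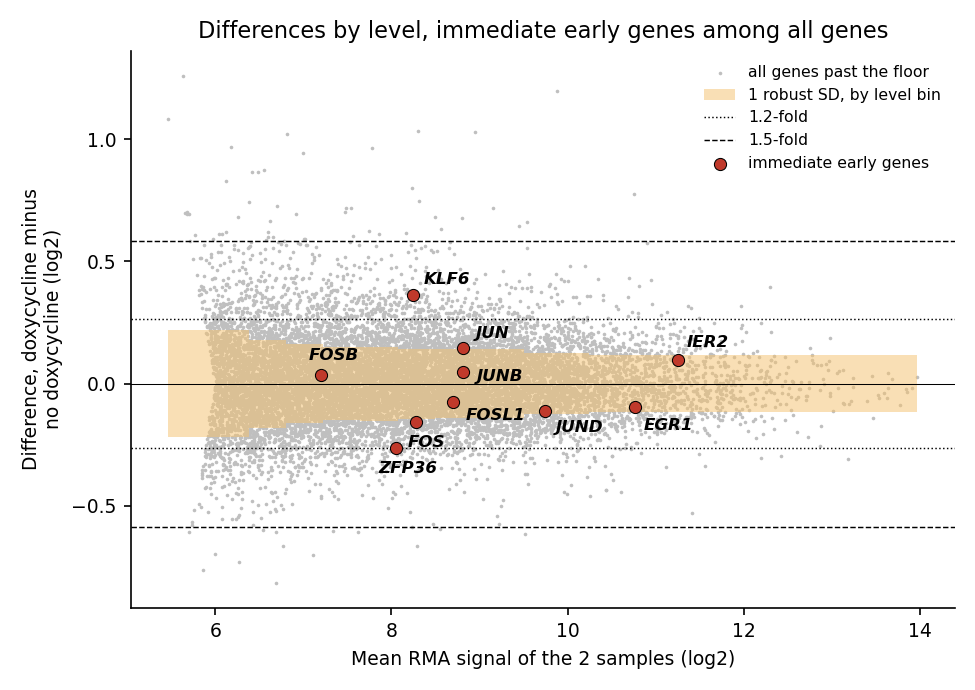
Difference, doxycycline minus no doxycycline (vertical axis, log2), against the mean log2 RMA signal of the 2 samples (horizontal axis) for the 13471 genes past the floor (grey) and the 10 immediate early genes (red). The shaded band is 1 robust SD either way in each of 10 bins of signal, and the lines mark 1.2-fold and 1.5-fold; KLF6 lies above and ZFP36 at the 1.2-fold lines, and the other 8 genes lie between them.

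The wider pathway was described through 9 lists of other genes, 118 in all, of which 107 had a probe set of their own and 96 passed the floor. Of these 96 genes 53 were higher and 43 lower, with a median of 0.02, where 50.3% and 48.9% of all genes were. At 1.2-fold 6 of 96 were higher and 2 lower, where 6.05% and 4.05% of all genes were. At 1.5-fold 2 were higher, RPS6KA5 and CD44, and 0 lower, where 0.364% and 0.111% of all genes were. These shares of all genes also stand beside the counts of each list below. The lists were chosen with earlier results of these data known, so nothing about the pathway as a set is read from these counts. The 11 without such a probe set included EGR2 and are not analysed here.

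Upstream of the immediate early genes, 1 kinase stood far from the rest. RPS6KA5 (MSK1), which phosphorylates histone H3 and CREB at immediate early promoters, read 7.47 with doxycycline against 6.52 in the control, a difference of 0.95 or 1.93-fold higher. Its close relative RPS6KA4 (MSK2) differed by -0.18, at 7.53 and 7.71. Over the 10 ERK, JNK and MSK kinase genes measured, 4 were higher and 6 lower, the median was -0.05, and the mean of 0.05 had the opposite sign. FOS, JUN and EGR1, whose differences of -0.15, 0.15 and -0.10 are given above, were split in direction. Of all 10 immediate early genes 5 were higher and 5 lower. A link between RPS6KA5 and their differences was not tested.

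The factors that act on the promoters differed less. SRF, which binds the CArG box, was at 9.46 and 9.64, a difference of -0.18. ELK1, its ERK-activated partner, read 8.29 with doxycycline against 8.57 in the control, or 1.21-fold lower. CREM, a CRE-binding factor, differed by 0.18. Of 9 SRF, ELK and CREB genes 5 were higher and 4 lower, with a median of 0.03 and a mean of -0.02, and 1 was past 1.2-fold. With a floor of 8, 5 of these genes were left and the median was -0.09. EGR1, the 1 of the 9 genes searched with CArG boxes in the 200-base window, was on the same side as SRF and ELK1, but at 1.07-fold. Sequence further upstream was not searched in any gene, and a link between these differences was not tested.

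The AP-1, EGR and ZFP36 relatives measured lay within 1.2-fold of equal. Of 10 AP-1 partners and relatives, 4 were higher and 6 lower with a median of -0.03, and 0 reached 1.2-fold. With a floor of 8, 3 were left, with a median of 0.03. ATF2 differed by 0.10, BATF3 by -0.12 and the stress-induced ATF3 by 0.10. Of 5 EGR and NAB genes, 2 were higher and 3 lower with a median of -0.04, led by EGR4 at -0.10 and the EGR corepressor NAB2 at -0.09, with EGR3 at 0.05. The relatives of ZFP36 were on its side: ZFP36L1 was at 8.10 and 8.27, a difference of -0.17, and ZFP36L2 at 8.98 and 9.10, a difference of -0.12. In the list of 8 ZFP36 relatives and mRNA decay genes 3 were higher and 5 lower (median -0.04), and the decapping enzyme gene DCP2 differed by 0.25.

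The other Krüppel-like factors went both ways. KLF9, a hormone-responsive member, read 8.57 with doxycycline against 8.27 in the control, or 1.23-fold higher. KLF1, the erythroid master regulator and 1 of the K562 marker genes above, was at 9.38 against 9.66, or 1.21-fold lower. Of 11 KLF genes past the floor other than KLF6, 4 were higher and 7 lower, with a median of -0.07.

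Among 23 other immediate early genes past the floor, 17 were higher and 6 lower, where 50.3% of all genes were higher. Their median was 0.07, and 2 were at least 1.2-fold higher (6.05% of all genes). Of the 23, 6 were further apart than the robust SD of their bin, against 32% of all genes. The 3 genes of this list under the floor were all lower, NR4A3 by -0.12, PLK2 by -0.26 and PTGS2 by -0.22. KLF2, KLF4 and KLF10 are counted both here and among the KLF genes above. TNFAIP3 (A20), an NF-kappaB feedback inhibitor, read 7.67 with doxycycline against 7.24 in the control, or 1.35-fold higher. SGK1, a kinase induced by serum and glucocorticoid, was at 7.46 and 7.12, or 1.26-fold higher. Among 10 MAPK feedback genes past the floor 7 were higher and 3 lower, with a median of 0.03, where 50.3% of all genes were higher. DUSP4 and DUSP6 fell under the floor, with differences of -0.13 and 0.33. DUSP1, the ERK, p38 and JNK phosphatase induced with the immediate early genes, was at 9.36 and 9.34, a difference of 0.01, while DUSP7 differed by -0.20 and DUSP10 by 0.19.

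Downstream, 13 genes that AP-1 or EGR1 are known to activate had 9 higher and 4 lower, with a median of 0.13. Of all genes compared, 50.3% were higher. CD44, the hyaluronan receptor, read 9.86 with doxycycline against 9.20 in the control, or 1.58-fold higher. PLAUR, the urokinase receptor, was at 7.98 and 7.67, or 1.24-fold higher. This median depended on dim genes: with a floor of 8 in place of 6, 7 genes remained, 3 higher and 4 lower, with a median of -0.029.

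**Figure D4:**
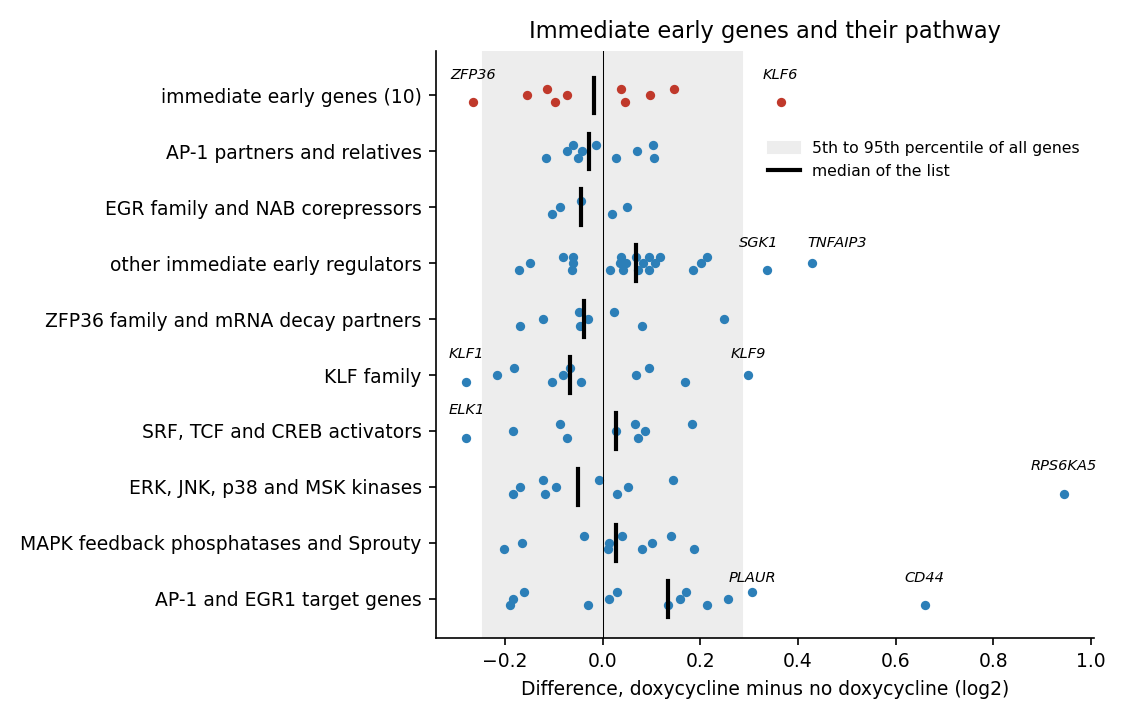
Difference, doxycycline minus no doxycycline (horizontal axis, log2), for the 10 immediate early genes (red) and for the genes of 9 pathway lists past the floor (blue), 1 dot a gene, with list medians as black bars and the middle 90% of all genes shaded. The 10 genes spread to both sides around a median of -0.02, and RPS6KA5 at 0.95 and CD44 at 0.66 lie furthest out.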

How the data were processed

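Total RNA was biotin-labelled by a whole-transcript sense target protocol, per the labels' protocols. According to the submitters' processing notes, the authors made the deposited values by RMA in Affymetrix Expression Console 1.1.1. RMA removes background, equalizes the distributions of the arrays and fits 1 value per probe set. True differences at dim signal can be compressed, while the robust SD of the differences was 0.22 in the dimmest bin and 0.12 in the brightest. The deposited values were read as log2, the scale RMA returns, and they run from 1.61 to 14.6; the sources used here do not state the log base or which arrays were normalized together. The series text names an HG-U133 array, but the probe set numbers belong to a whole-transcript Gene array, whose annotation was used.

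Of 33297 probe sets, 19460 had 1 symbol and were used. Symbols were updated through Entrez IDs to RefSeq. A gene took its probe set of highest mean, and genes with both values under 6 were left out. Differences are doxycycline minus no doxycycline, with the robust SD in 10 bins of mean signal. No test was run, because each group held 1 sample. The steps were tested on simulated data (Python 3.11.15, pandas 2.3.3).

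Named were the 10 genes, up to 4 members a list past 1.2-fold, at least the 2 furthest apart, and RPS6KA5, SRF, EGR2, EGR3, ATF3, DUSP1, ZFP36L1, ZFP36L2 and BMI1 in any case. The genes and lists were chosen with earlier results of these data known, and the motifs after the values were seen. Floors, scaling and probe set rules were varied.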

Additional observations from a re-analysis of the deposited data

How the results depend on the processing

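With 7 other settings (floors of 5 and 8 and no floor, quantile normalization, median centring, the mean of a gene's probe sets, and probe sets with several symbols kept), all 10 immediate early genes kept their sign wherever they were compared, and none moved by more than 0.0121 on the log2 scale. FOSB was not compared with the floor of 8. Each of the 10 had 1 probe set, so the floors and the probe set mean could not change its difference. Keeping probe sets with several symbols did not change it either. Only quantile normalization and median centring moved the members, so the kept signs say little beyond these settings. A difference or median was taken as moved when it shifted by at least 0.15, the robust SD over genes, since there are no replicates, and a count when it was over 1.5 times larger or smaller. By these measures 5 of 181 values moved, 4 of them counts over all genes. The 181 include the member differences that could not move. The genes at least 1.2-fold apart were 1360 as reported, 506 with the floor of 8 and 2448 with no floor, and those at least 1.5-fold apart were 64, 20 and 143. The median of AP-1 and EGR1 target genes was -0.029 with the floor of 8, where fewer genes were compared. At that floor the median also changed sign for AP-1 partners (0.03) and for SRF, TCF and CREB activators (-0.09), and under the scaling alternatives no list median changed sign. The deposited values were already scaled by RMA and the centring shift was 0.0017, so the scaling alternatives could move the medians little. No paired analysis was possible because each group held 1 sample. Replicates could not be left out for the same reason, and no detection calls were used, so signal near background was not separated from expression.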
